A study of Mus musculus with 18 samples.

Results

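Asns, Pck2, Cth, Cbs, Aldh18a1, Pycr1, Gpt2, Got1 and Glul encode enzymes that make or interconvert amino acids outside the serine and glycine route. These 9 genes were taken by symbol from the 24369 genes of the deposited table, and each was found there and passed the low-count filter. RNA-seq of mouse embryonic stem cells (mESCs) of the E14 line was analysed. All cells carried Rex1GFPd2, a destabilized GFP reporter of Rex1 (Zfp42, a gene of naive pluripotency), together with the nuclease Cas9. In the differentiation time course, wild-type reporter cells were sampled at days 0, 1, 2 and 3, with 3 libraries per day. In the sorted set, Rex1GFP+ cells were wild-type, Nprl2-/- (Nprl2 KO) or Tsc2-/- (Tsc2 KO), with 2 libraries per genotype.

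Per the study's methods, KO lines were clones in which a pair of gRNAs had removed an exon from both alleles. The mESCs were kept on mouse fibroblast feeders in serum with LIF. For some experiments they were kept on gelatin in a medium with LIF and inhibitors of MEK and Gsk3. Differentiation medium lacked serum, LIF and these inhibitors, and all of these media were supplemented with nonessential amino acids. The labels do not say whether libraries of a genotype are separate clones, or whether those of a day are separate cultures, so p values measure only the spread between these libraries. The medium of the day 0 libraries is not given in the labels, and a change of medium and the time in differentiation cannot be told apart.

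As background, asparagine synthetase (Asns) makes asparagine from aspartate with glutamine as nitrogen donor. Pck2 is the mitochondrial phosphoenolpyruvate carboxykinase, which makes phosphoenolpyruvate from oxaloacetate. Aldh18a1 converts glutamate to the precursor that Pycr1 reduces to proline in mitochondria. Gpt2 is the mitochondrial alanine transaminase, and Got1 the cytosolic aspartate transaminase. Cbs and Cth carry out the steps of transsulfuration that lead from homocysteine to cysteine, and Glul makes glutamine from glutamate and ammonia. Several of these genes are textbook targets of Atf4, a transcription factor whose translation rises under amino acid shortage and with mTORC1 activity. Nprl2 belongs to Gator1, which restrains mTORC1 when amino acids are scarce, and Tsc2 belongs to the complex that restrains mTORC1 through Rheb.

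The bases before the start site are shown for 5 of the genes because 4 of them hold the letters TGATGNAA, the core of the element that Atf4 is known to bind with C/EBP partners. Sequences are from the RefSeq promoter table (GRCm38.p6, the build also called mm10), 5′ to 3′ on the strand of the gene, and cover the 150 bases before the listed start. Capitals mark the match, which lies on the opposite strand in Pck2 and Got1. The windows are chr6:7693210-7693359 (minus strand) for Asns, chr14:55540116-55540265 (plus strand) for Pck2, chr11:120643749-120643898 (minus strand) for Pycr1, chr19:43524606-43524755 (minus strand) for Got1 and chr19:40588464-40588613 (minus strand) for Aldh18a1, which is printed for comparison and holds no match.
Asns: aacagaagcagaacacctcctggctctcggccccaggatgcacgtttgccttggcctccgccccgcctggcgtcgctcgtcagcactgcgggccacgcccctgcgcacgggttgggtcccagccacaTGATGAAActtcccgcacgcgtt
Pck2: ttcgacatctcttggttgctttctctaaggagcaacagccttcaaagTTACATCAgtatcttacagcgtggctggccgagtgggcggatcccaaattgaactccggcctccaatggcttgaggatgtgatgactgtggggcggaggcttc
Pycr1: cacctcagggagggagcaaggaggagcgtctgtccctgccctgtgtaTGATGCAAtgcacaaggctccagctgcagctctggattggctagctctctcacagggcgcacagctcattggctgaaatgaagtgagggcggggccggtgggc
Got1: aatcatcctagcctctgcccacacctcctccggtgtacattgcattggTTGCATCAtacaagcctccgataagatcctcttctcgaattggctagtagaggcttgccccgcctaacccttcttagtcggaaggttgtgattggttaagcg
Aldh18a1: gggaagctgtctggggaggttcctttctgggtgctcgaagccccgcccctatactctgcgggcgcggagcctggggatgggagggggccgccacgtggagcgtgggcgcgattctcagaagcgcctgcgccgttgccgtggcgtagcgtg

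The match lay 23 to 16 bases before the start in Asns (TGATGAAA), 103 to 96 bases before it in Pycr1 (TGATGCAA) and in Pck2 (TGATGTAA), and 102 to 95 bases before it in Got1 (TGATGCAA). Within 250 bases before the start, searched on both strands, 4 of the 8 enzyme genes with an entry held the letters, and Aldh18a1, Gpt2, Cbs and Glul did not. Of 27025 genes in the table, 3.91% held them in any window. Cth had no entry. A match describes the letters only, and binding was not measured.

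The lowest and highest totals of estimated counts per library were 8610357 and 13780861 for GFP+ cells, and 12503005 and 15305054 for the time course. The enzymes drew from 73 counts (Pycr1, lowest library) to 9637 (Asns, highest library). The 6 markers of mESCs summed to between 4350 and 4520 TPM (a transcript abundance corrected for length, with the same total in every library) at day 0 and fell to between 1270 and 1560 TPM at day 3, while 5 formative markers rose from between 111 and 135 to between 1270 and 1550 TPM. Wild-type GFP+ libraries had 16.1 and 17.0 TPM of Nprl2, those of Nprl2 KO had 8.09 and 8.65, and those of Tsc2 KO had 16.5 and 20.8. For Tsc2 the wild-type libraries had 45.0 and 44.9 TPM, those of Nprl2 KO 45.5 and 41.8, and those of Tsc2 KO 18.8 and 20.3. Each targeted gene was therefore lowest in its own KO, though transcript remained. The 8 feeder fibroblast markers summed to between 110 and 156 TPM over the wild-type libraries, to between 115 and 120 over those of Nprl2 KO, and to 140 and 40.2 in Tsc2 KO libraries 1 and 2, so Tsc2 KO library 2 stood lower than the other 5 GFP+ libraries. In the time course the same sum was between 9.73 and 17.4 TPM at day 0 and between 34.4 and 43.0 at day 3. Lum was below 0.1 TPM in every library of the time course. The markers did not move together: of the 7 tested between day 3 and day 0, 4 were called higher and 3 lower. Thy1 averaged 4.38 TPM at day 0 and 30.1 at day 3, whereas Col1a1 averaged 4.20 and 1.17. The part of feeder cells in the results below was not tested. The 7 primitive endoderm markers summed to at most 12.9 TPM in any library.

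**Figure D1:**
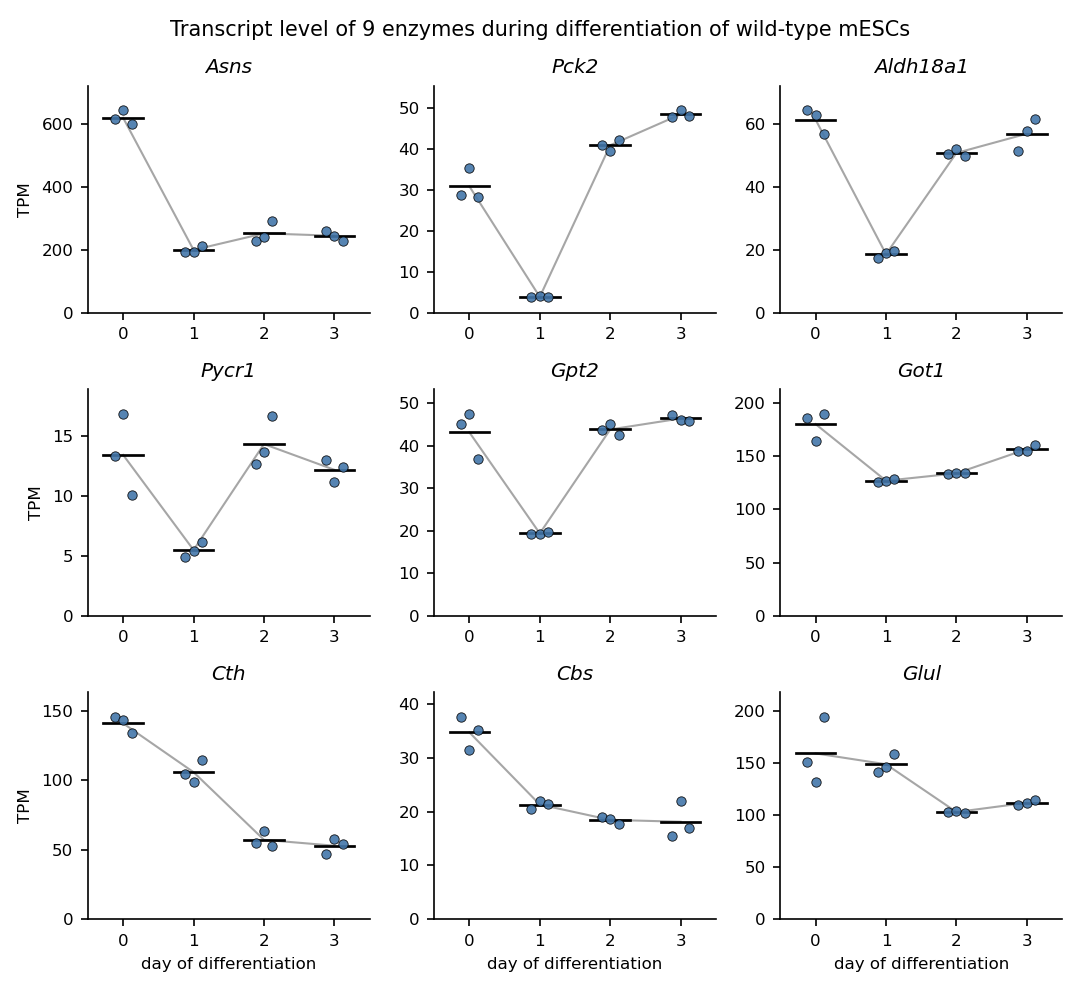
Transcript level in TPM (linear axis from 0, a separate scale per gene) of the 9 enzymes at days 0 to 3 of differentiation. Points are the 3 libraries of a day, horizontal bars their mean, and grey lines join the means. Pck2, Aldh18a1, Pycr1 and Gpt2 were lowest at day 1 and higher again at day 2, whereas Asns stayed between 194 and 290 TPM from day 1 on and Cth and Cbs ended at their lowest mean level at day 3.

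The time course asked how the enzymes changed as wild-type mESCs left naive pluripotency. From day 0 to day 1, 8 of the 9 enzyme genes fell and none rose, by between 0.34 (Cth) and 2.94 (Pck2) on the log2 scale, and Glul did not pass the test. Of 14382 genes tested, 60.9% passed in either direction and 30.8% fell. The median change of the 9 genes was -1.08, beside 0.00 over all genes (edgeR quasi-likelihood test, Benjamini-Hochberg adjusted p under 0.05, as in all comparisons). From day 1 to day 2, 5 of the 9 rose (Pck2, Aldh18a1, Pycr1, Gpt2 and Asns) and 3 fell (Cth, Glul and Cbs), with 62.1% of all genes called, 32.5% higher and 29.6% lower. From day 2 to day 3, Got1 and Pck2 rose, with 31.5% of genes called. The steps share libraries: day 1 enters both the first and the next, so a fall and a rise are not independent of each other. In bulk libraries, fewer cells that express a gene and less RNA per cell cannot be told apart.

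Pck2 showed the widest swing. Its level was 28.8, 35.4 and 28.4 TPM at day 0, then 3.77, 4.01 and 3.75 at day 1. It stood at 41.1, 39.5 and 42.1 TPM at day 2, and at 47.9, 49.5 and 48.1 at day 3. Libraries of consecutive days did not overlap at any step. Pck2 fell 7.65-fold to day 1 (log2 fold change -2.94, SE 0.10, edgeR adjusted p = 6.9e-15) and rose 9.82-fold to day 2 (log2 fold change 3.30, SE 0.10, edgeR adjusted p = 9.4e-15). At day 3 it was 1.48-fold above day 0 (log2 fold change 0.56, SE 0.08, edgeR adjusted p = 1.8e-06), the only enzyme gene of the 9 that passed the test upward at that comparison. Of the other 8, 6 were below day 0 at day 3, where 70.9% of all genes passed, 35% higher and 35.9% lower. The small rise from day 2 to day 3 (0.20, SE 0.07, edgeR adjusted p = 0.046) was lost without any of 5 libraries: 0.21 without day 2 library 1, 0.18 without day 2 library 2, 0.21 without day 3 library 1, 0.19 without day 3 library 2 and 0.23 without day 3 library 3. It was also lost with upper-quartile scaling (adjusted p = 0.0719). Pck1, the cytosolic counterpart, did not exceed 0.145 TPM in any library of the time course and was not tested.

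Among the genes of proline synthesis, Aldh18a1 and Pycr1 were lowest at day 1, as was Pck2. Aldh18a1 was at 64.5, 63.0 and 57.1 TPM at day 0, at 17.4, 18.9 and 19.6 at day 1, at 50.6, 52.2 and 49.9 at day 2, and at 51.5, 57.9 and 61.7 at day 3. Day 1 lay below every other day, and days 0 and 3 overlapped. The fall to day 1 was 3.14-fold (log2 fold change -1.65, SE 0.07, edgeR adjusted p = 3.9e-13) and the rise to day 2 was 2.53-fold (1.34, SE 0.07, edgeR adjusted p = 1.7e-11). The net difference between day 3 and day 0 was small (-0.20, SE 0.07, edgeR adjusted p = 0.013) and missed the threshold without day 0 library 1 (-0.17), without day 3 library 1 (-0.14) or with limma (-0.11, adjusted p = 0.204).

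Pycr1, the least abundant of the 9 at days 0, 2 and 3, was at 13.4, 16.9 and 10.1 TPM at day 0 and at 4.92, 5.38 and 6.19 at day 1. It was at 12.6, 13.7 and 16.7 TPM at day 2 and at 13.0, 11.2 and 12.4 at day 3. Day 1 again lay apart, and the other 3 days overlapped. Pycr1 fell by 1.23 to day 1 (SE 0.16, edgeR adjusted p = 3.4e-06) and rose by 1.27 to day 2 (SE 0.16, edgeR adjusted p = 2.4e-06) on the log2 scale. Day 3 against day 0 gave -0.23 (SE 0.15, edgeR adjusted p = 0.17), and -0.40 (adjusted p = 0.00998) without day 0 library 3.

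Pycrl, another reductase of the last step of proline synthesis, listed under its older symbol for Pycr3, was measured beside Pycr1. It averaged 30.4 TPM at day 0 and 30.1 at day 1 (0.06, SE 0.10, edgeR adjusted p = 0.61). Pycrl rose from day 2 to day 3 by 0.67 on the log2 scale (SE 0.10, edgeR adjusted p = 8.9e-05), where Pycr1 gave -0.27 (SE 0.15, edgeR adjusted p = 0.17). The difference between Pycr1 and Pycrl was not tested.

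The transaminases differed in how much of the swing they showed. Gpt2, the mitochondrial alanine transaminase, was at 45.1, 47.6 and 36.8 TPM at day 0, at 19.2, 19.4 and 19.6 at day 1, at 43.8, 45.1 and 42.6 at day 2, and at 47.2, 46.1 and 45.9 at day 3. Its day 1 libraries lay below all others and close together. Gpt2 fell by 1.08 (SE 0.08, edgeR adjusted p = 7.0e-10) and rose by 1.06 (SE 0.08, edgeR adjusted p = 1.4e-09) on the log2 scale, and day 3 against day 0 gave 0.02 (SE 0.07, edgeR adjusted p = 0.83). Gpt, the cytosolic alanine transaminase, was between 3.72 and 6.16 TPM throughout and was called higher at day 1 (0.46, SE 0.18, edgeR adjusted p = 0.031).

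Got1, the cytosolic aspartate transaminase, was at 186, 164 and 190 TPM at day 0, at 126, 127 and 129 at day 1, at 133, 134 and 134 at day 2, and at 155, 155 and 161 at day 3. Day 0 lay above the other days and day 3 between it and days 1 and 2. The fall to day 1 was 1.35-fold (-0.43, SE 0.06, edgeR adjusted p = 3.2e-06). The rise from day 2 to day 3 (0.18, SE 0.06, edgeR adjusted p = 0.024) missed the threshold without day 2 library 1 (0.19) or day 3 library 3 (0.18). Its mitochondrial counterpart Got2 averaged 203 TPM at day 0 and rose to 234 TPM at day 1 (0.27, SE 0.05, edgeR adjusted p = 2.1e-04), a direction opposite to that of Got1 at the same step.

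Asns was the most abundant of the 9 at every day and stayed below its day 0 level. It was at 616, 645 and 601 TPM at day 0 and at 194, 194 and 211 at day 1. Its level was 228, 239 and 290 TPM at day 2, and 262, 245 and 228 at day 3. Every day 0 library lay above every later library. The fall was 2.96-fold (log2 fold change -1.57, SE 0.07, edgeR adjusted p = 1.5e-12), and at day 3 Asns was still 2.69-fold below day 0 (-1.43, SE 0.07, edgeR adjusted p = 2.3e-12). The rise to day 2 (0.22, SE 0.07, edgeR adjusted p = 0.013) missed the threshold without day 1 library 1 (0.21), without day 1 library 2 (0.21) or without day 2 library 3 (0.12).

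The transsulfuration genes declined over the course instead of returning. Cth, which releases cysteine from cystathionine, was at 146, 143 and 134 TPM at day 0, at 104, 98.7 and 114 at day 1, at 54.9, 63.5 and 52.9 at day 2, and at 47.1, 57.7 and 53.9 at day 3. Days 0, 1 and 2 were separate, and days 2 and 3 overlapped. Cth fell by 0.34 to day 1 (SE 0.08, edgeR adjusted p = 8.5e-04) and by 1.00 to day 2 (SE 0.08, edgeR adjusted p = 5.7e-09) on the log2 scale, and was 2.83-fold below day 0 at day 3 (edgeR adjusted p = 4.7e-12).

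Cbs, which joins homocysteine and serine, was at 37.7, 31.4 and 35.2 TPM at day 0, at 20.5, 22.0 and 21.5 at day 1, at 18.9, 18.7 and 17.8 at day 2, and at 15.4, 21.9 and 17.0 at day 3. Its main step was the fall to day 1 (-0.63, SE 0.11, edgeR adjusted p = 4.3e-05). The further fall to day 2 (-0.32, SE 0.11, edgeR adjusted p = 0.018) missed the threshold without day 1 library 2 (-0.29) or day 2 library 3 (-0.29), with upper-quartile scaling (-0.24, adjusted p = 0.0659) and with limma (-0.20, adjusted p = 0.119). Cbs was 2.03-fold below day 0 at day 3 (edgeR adjusted p = 7.8e-08).

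Glul, glutamine synthetase, was at 151, 132 and 195 TPM at day 0 and at 141, 146 and 159 at day 1. These groups overlapped (-0.03, SE 0.10, edgeR adjusted p = 0.83), and the sign turned without day 0 library 3, to 0.15, or without day 1 library 1, to 0.01. Glul then fell to 103, 104 and 102 TPM at day 2 (-0.64, SE 0.10, edgeR adjusted p = 7.7e-05) and was at 110, 111 and 114 TPM at day 3. The step from day 1 to day 2 was thus the first that Glul passed, where the other 8 genes had passed from day 0 to day 1. Lgsn, a relative of Glul with no known glutamine synthetase activity, was listed at 0 in all but 1 library of the time course.

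**Figure D2:**
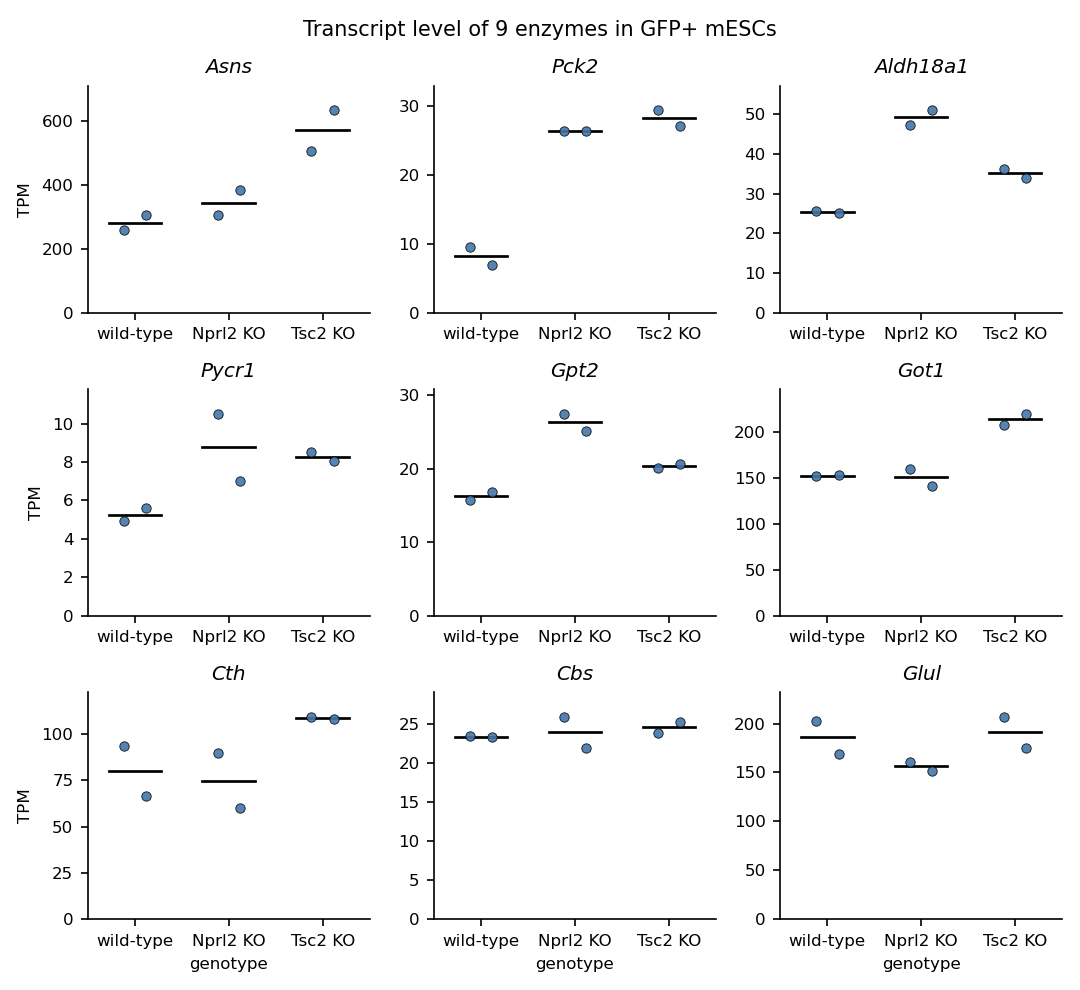
Transcript level in TPM (linear axis from 0, a separate scale per gene) of the 9 enzymes in GFP+ mESCs of 3 genotypes. Points are the 2 libraries of a genotype and horizontal bars their mean. Pck2 was at 26.4 TPM or above in all 4 KO libraries and at 9.51 or below in wild-type, and Asns and Got1 were highest in Tsc2 KO whereas Aldh18a1 and Gpt2 were highest in Nprl2 KO.

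The GFP+ libraries asked what loss of either restraint on mTORC1 changed in cells that still expressed the Rex1 reporter. In Nprl2 KO, 4 of the 9 enzyme genes rose (Pck2, Aldh18a1, Pycr1 and Gpt2) and none fell, where 6.43% of the 13725 genes tested passed, 2.78% rose and 3.66% fell. In Tsc2 KO, 5 of 9 rose (Pck2, Asns, Got1, Aldh18a1 and Pycr1) and none fell, where 29.1% of genes passed and 14.9% rose. Over the 9 genes the median change was 0.32 for Nprl2 KO, and for Tsc2 KO it was 0.43, beside 0.00 over all genes in both. Both comparisons use the same wild-type libraries, so their agreement is not independent. Tsc2 KO against Nprl2 KO, in which 34.2% of genes passed, put Asns and Got1 higher and Aldh18a1 and Gpt2 lower in Tsc2 KO.

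Pck2 was at 9.51 and 6.97 TPM in wild-type, at 26.4 in both Nprl2 KO libraries, and at 29.4 and 27.2 in Tsc2 KO. It had the largest change of the 9 in each KO. The rise was 3.26-fold in Nprl2 KO (log2 fold change 1.71, SE 0.13, edgeR adjusted p = 2.9e-05) and 3.32-fold in Tsc2 KO (1.73, SE 0.13, edgeR adjusted p = 3.1e-06). Tsc2 KO against Nprl2 KO gave 0.02 (SE 0.12, edgeR adjusted p = 0.90), with a normal interval at the 95% level from -0.20 to 0.25. This value turned to -0.05 without Tsc2 KO library 1. Pck1 did not exceed 0.119 TPM in GFP+ cells.

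Asns was at 258 and 304 TPM in wild-type, at 306 and 383 in Nprl2 KO, and at 507 and 634 in Tsc2 KO. The Tsc2 KO libraries lay above all others, and those of Nprl2 KO just above wild-type. Asns rose 1.97-fold in Tsc2 KO (log2 fold change 0.98, SE 0.17, edgeR adjusted p = 0.0092). In Nprl2 KO the value was 0.32 (SE 0.17, edgeR adjusted p = 0.34). It passed without the low-count filter (edgeR adjusted p = 0.000178) or with the replicate number added to the fit (0.32, edgeR adjusted p = 0.000754). The difference between the KOs was 0.66 (SE 0.16, edgeR adjusted p = 0.029), and missed the threshold without Nprl2 KO library 1 (0.50) or Tsc2 KO library 2 (0.51). Tsc2 KO library 2 is also the library with the lowest feeder marker sum, and the part of feeder cells in the result was not tested.

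Aldh18a1 was at 25.6 and 25.2 TPM in wild-type, at 47.3 and 51.0 in Nprl2 KO, and at 36.2 and 34.0 in Tsc2 KO. The 3 genotypes did not overlap, and Nprl2 KO was highest. Aldh18a1 rose 1.99-fold in Nprl2 KO (0.99, SE 0.09, edgeR adjusted p = 6.7e-05) and 1.35-fold in Tsc2 KO (0.43, SE 0.09, edgeR adjusted p = 0.0031). The level in Tsc2 KO was lower than in Nprl2 KO by 0.56 on the log2 scale (SE 0.08, edgeR adjusted p = 2.9e-04).

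Pycr1 was at 4.95 and 5.59 TPM in wild-type, at 10.5 and 7.01 in Nprl2 KO, and at 8.51 and 8.05 in Tsc2 KO. The KO libraries lay above wild-type, with the Nprl2 KO libraries far apart. The rises were 0.76 in Nprl2 KO (SE 0.21, edgeR adjusted p = 0.048) and 0.62 in Tsc2 KO (SE 0.21, edgeR adjusted p = 0.042), and neither held in DESeq2 (adjusted p = 0.0995 and 0.129) or limma (adjusted p = 0.0968 and 0.0522). In each KO the call held in 5 of 11 alternative settings. In Nprl2 KO the call was also lost without Nprl2 KO library 1 (0.44), wild-type library 1 (0.65) or wild-type library 2 (0.86), and with only the 2 groups fitted (0.76, adjusted p = 0.0769). In Tsc2 KO it was lost without any of the 4 libraries, with values of 0.56 and 0.67 without Tsc2 KO libraries 1 and 2, and 0.50 and 0.71 without wild-type libraries 1 and 2. Tsc2 KO against Nprl2 KO gave -0.15 (SE 0.19, edgeR adjusted p = 0.59), and 0.17 without Nprl2 KO library 1.

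Gpt2 was at 15.7 and 16.8 TPM in wild-type, at 27.5 and 25.1 in Nprl2 KO, and at 20.1 and 20.7 in Tsc2 KO. The order of the genotypes was that of Aldh18a1, again with no overlap. Gpt2 rose 1.66-fold in Nprl2 KO (0.73, SE 0.10, edgeR adjusted p = 0.0014). Tsc2 KO gave 0.29 (SE 0.10, edgeR adjusted p = 0.0501, or 0.0493 with at least 10 counts in every library). It passed with the replicate number added to the fit (0.29, edgeR adjusted p = 0.0207). Tsc2 KO was lower than Nprl2 KO by 0.44 (SE 0.10, edgeR adjusted p = 0.0041). Gpt was between 4.71 and 6.99 TPM and did not pass in any comparison of GFP+ cells.

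Got1 was at 151 and 153 TPM in wild-type, at 159 and 141 in Nprl2 KO, and at 207 and 220 in Tsc2 KO. Nprl2 KO libraries lay on either side of wild-type, and those of Tsc2 KO above both. Got1 rose 1.37-fold in Tsc2 KO (0.45, SE 0.07, edgeR adjusted p = 6.0e-04), and Nprl2 KO gave 0.01 (SE 0.07, edgeR adjusted p = 0.96), with a sign that turned without Nprl2 KO library 1 (-0.08) or wild-type library 1 (-0.02). The difference between the KOs was 0.44 (SE 0.07, edgeR adjusted p = 5.0e-04). Got2 was between 185 and 210 TPM in all 6 libraries and did not pass in any of these comparisons.

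Cth was at 93.8 and 66.5 TPM in wild-type, at 89.7 and 60.2 in Nprl2 KO, and at 110 and 108 in Tsc2 KO. Libraries of wild-type and of Nprl2 KO each lay far apart, and neither KO passed against wild-type (-0.08, SE 0.24, edgeR adjusted p = 0.89 and 0.40, SE 0.23, edgeR adjusted p = 0.28). Cth passed in Tsc2 KO without the low-count filter (edgeR adjusted p = 0.000414) or with the replicate number added to the fit (0.42, edgeR adjusted p = 0.0195). The sign in Nprl2 KO turned without Nprl2 KO library 2 (0.18) or wild-type library 1 (0.17). Tsc2 KO against Nprl2 KO gave 0.48 (SE 0.23, edgeR adjusted p = 0.19), and 0.78 without Nprl2 KO library 1. This difference passed without the low-count filter (0.47, edgeR adjusted p = 7.27e-06) or with the replicate number added to the fit (0.50, edgeR adjusted p = 0.00693). Cbs was at 23.5 and 23.4 TPM in wild-type, at 26.0 and 22.0 in Nprl2 KO, and at 23.9 and 25.3 in Tsc2 KO. For Cbs, Nprl2 KO gave 0.07 (SE 0.11, edgeR adjusted p = 0.79), with bounds of -0.16 and 0.29 in the same kind of interval. Tsc2 KO gave 0.04 (SE 0.11, edgeR adjusted p = 0.84), with bounds of -0.19 and 0.26. The sign in Nprl2 KO turned without Nprl2 KO library 1 (-0.07).

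Glul was at 203 and 169 TPM in wild-type, at 160 and 152 in Nprl2 KO, and at 207 and 175 in Tsc2 KO, and neither KO passed against wild-type (-0.22, SE 0.10, edgeR adjusted p = 0.26 and 0.00, SE 0.10, edgeR adjusted p = 0.98). Glul passed in Nprl2 KO without the low-count filter (-0.22, edgeR adjusted p = 0.0439) or with the replicate number added to the fit (-0.21, edgeR adjusted p = 0.0256). Glul lies on chromosome 1, and the 747 genes tested on it were shifted in Tsc2 KO, with a median of 0.37 against wild-type on the log2 scale. Relative to that median, Glul stood at -0.37 in Tsc2 KO. In Tsc2 KO against Nprl2 KO, Glul gave 0.22 (SE 0.10, edgeR adjusted p = 0.13), and 0.36 without Tsc2 KO library 2. Glul passed there without the low-count filter (edgeR adjusted p = 0.0162) or with the replicate number added to the fit (0.21, edgeR adjusted p = 0.00746). The chromosome median in that comparison was 0.36, and Glul stood at -0.14 relative to it. The other 8 genes lie on chromosomes whose medians were within 0.05 of 0 in each KO comparison.

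**Figure D3:**
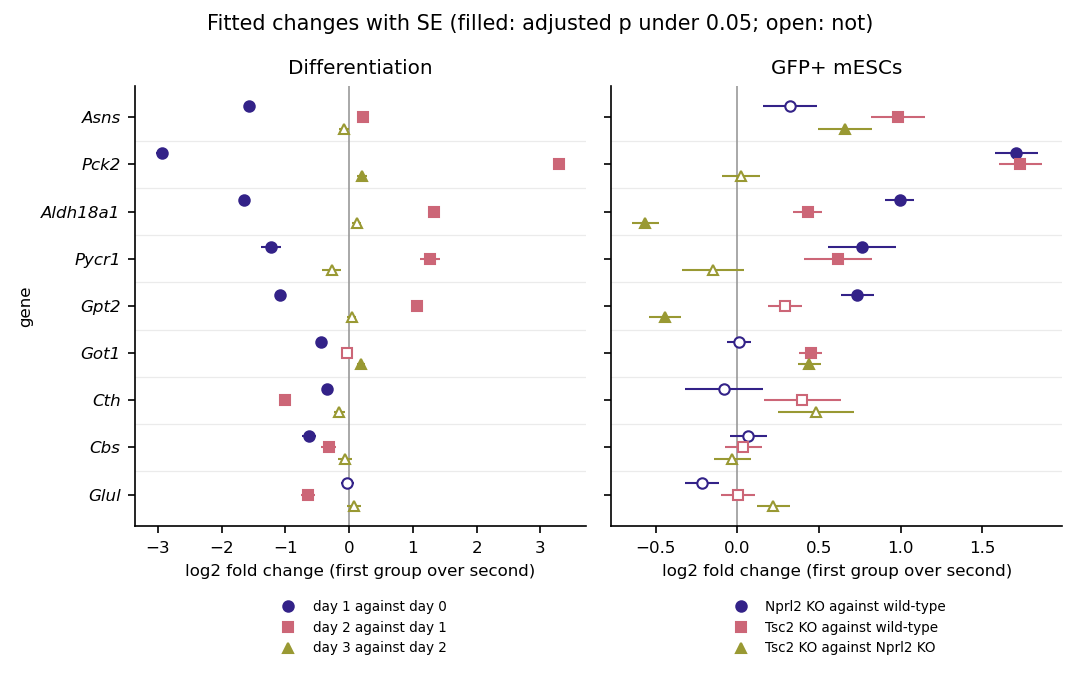
Fitted log2 fold changes (horizontal axis, first group over second) of the 9 enzymes between consecutive days (left) and between genotypes of GFP+ mESCs (right, narrower axis), with bars of 1 SE from edgeR. Filled symbols passed an adjusted p of 0.05 and open symbols did not. Pck2 spans -2.94 to 3.30 in the time course and lies at 1.71 and 1.73 in the KOs.

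Set side by side, the genes that swung between days 0, 1 and 2 included those that rose in Nprl2 KO. Pck2, Aldh18a1, Pycr1 and Gpt2 each fell at day 1, rose at day 2 and rose in Nprl2 KO. In Tsc2 KO the first 3 of these passed, and Gpt2 gave 0.29 (edgeR adjusted p = 0.0501). The share of all genes that fell at day 1, rose at day 2 and rose in Nprl2 KO was not computed. The Pycr1 call held in only 5 of 11 alternative settings in each KO. Asns and Got1, which were higher in Tsc2 KO than in Nprl2 KO, fell at day 1 and were still below day 0 at day 3, although Asns was called higher at day 2 than at day 1 (0.22, edgeR adjusted p = 0.013). Across the 12 time-course libraries, Pck2 and Gpt2 had a Pearson r of 0.980 (log2 CPM), Aldh18a1 and Gpt2 one of 0.972, and Cth and Pck2 one of -0.527. These values describe libraries that fall into 4 days. In mean level, wild-type GFP+ cells (Pck2 8.24 TPM, Gpt2 16.3, Aldh18a1 25.4, Asns 281) stood nearer to day 1 than to day 0 (Pck2 30.9, Gpt2 43.1, Aldh18a1 61.5, Asns 621). Glul did not: it averaged 186 TPM in these cells, above both day 0 (159) and day 1 (149). Got1, at 152 TPM, lay about midway between day 0 (180) and day 1 (127). The labels do not say that the 2 sets were prepared together or kept in the same medium, and no test was made between them.

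The order of abundance among the 9 was led by Asns in every group, from 200 TPM on average at day 1 to 621 at day 0. Got1, Glul and Cth followed in every group except day 3, where Aldh18a1 averaged above Cth with libraries that overlapped. At day 0 the libraries of Got1, Glul and Cth overlapped as neighbours in the order, as did those of Gpt2, Cbs and Pck2. Pck2 moved from last place at day 1 (3.84 TPM) to above Cbs at day 2 (40.9 against 18.5 TPM), with no overlap between these genes on either day.

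Genes with the most similar profile over the 12 libraries were named for each enzyme by Pearson r of log2 CPM. Pycr1 was closest to Psph (0.971), the phosphatase of serine synthesis, and then to Lrig3 (0.957). Pck2 was closest to Smarcd2 (0.988) and Kif13a (0.987), Gpt2 to Dtx1 (0.989) and Map3k1 (0.981), and Aldh18a1 to Asap1 (0.985) and Cdr2l (0.982). Asns was closest to Wsb1 (0.991) and Klf8 (0.990), and Cth to Nup62cl (0.995) and Nubp1 (0.993). Cbs was closest to Ccdc141 (0.979) and Wwp2 (0.975), Got1 to Atp8b2 (0.970) and Cuta (0.970), and Glul to Acadsb (0.985), a dehydrogenase of branched-chain acid breakdown. With many genes changing by day, such values are high for many pairs.

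Other enzymes of amino acid metabolism did not share these directions as a group. The list held 48 further genes of proline, arginine, sulfur amino acid, glutamate, aspartate, branched-chain and aromatic amino acid metabolism, the paralogs above included. At day 1, 18 of the 44 tested rose and 14 fell, where 30.1% of all genes rose and 30.8% fell. At day 2, 9 rose and 21 fell, beside 32.5% and 29.6% of all genes. From day 2 to day 3, 5 rose and 17 fell, beside 15.9% and 15.6% of all genes. Among those that fell to day 1 were Ass1 (argininosuccinate synthase, 387 to 111 TPM, -1.73, SE 0.08), Gss (glutathione synthetase, 108 to 32.6 TPM, -1.64, SE 0.09) and Aspg (an asparaginase, 2.32 to 0.814 TPM, -1.45, SE 0.25). Sqor, a sulfide oxidizing enzyme, averaged 0.0268 TPM at day 0 and 0.527 at day 1 and had too few reads at day 0 for a fold. At day 2, Aspg rose to 5.68 TPM (2.68, SE 0.22), Ddc (aromatic amino acid decarboxylase) fell from 10.8 to 1.74 TPM (-2.74, SE 0.18) and Csad fell from 26.1 to 11.6 TPM (-1.29, SE 0.10). Each of these named changes passed the edgeR threshold.

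In Nprl2 KO, where 2.78% of all genes rose and 3.66% fell, 3 of the 43 related enzymes tested rose, Bcat2 and Adss among them. Of these related enzymes Asrgl1, an asparaginase, fell from 17.4 to 10.4 TPM (-0.70, SE 0.14, edgeR adjusted p = 0.011). The number that passed was 9 without the low-count filter, where 1667 of all genes passed, and 2 with limma. In edgeR it was 2 without wild-type library 2, 1 without wild-type library 1, and 0 without either Nprl2 KO library, where 9 (without library 1) and 12 (without library 2) had an unadjusted p under 0.05. In Tsc2 KO, 8 rose and 10 fell, where 14.9% of all genes rose and 14.2% fell. Cdo1 (cysteine dioxygenase) rose from 17.4 to 47.3 TPM (1.42, SE 0.19), Gss from 45.9 to 121 (1.36, SE 0.10) and Ass1 from 221 to 566 (1.32, SE 0.09), while Prodh, which breaks down proline, fell from 21.2 to 11.2 TPM (-0.95, SE 0.14). Cdo1, Gss and Ass1 were also higher in Tsc2 KO than in Nprl2 KO, by 2.03 (SE 0.20), 1.63 (SE 0.10) and 1.26 (SE 0.09), and Ahcy was lower by 0.98 (SE 0.19).

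Atf4 transcript was at 191 and 186 TPM in wild-type, at 279 and 283 in Nprl2 KO and at 314 and 313 in Tsc2 KO. Both KOs lay above wild-type, by 0.62 (SE 0.06, edgeR adjusted p = 1.5e-04) and 0.70 (SE 0.06, edgeR adjusted p = 9.2e-06). In the time course Atf4 was at 355, 400 and 436 TPM at day 0, at 208, 234 and 235 at day 1, at 304, 327 and 323 at day 2, and at 377, 376 and 348 at day 3. Atf4 fell to day 1 (-0.75, SE 0.07, edgeR adjusted p = 5.3e-08) and rose to day 2 (0.38, SE 0.07, edgeR adjusted p = 1.8e-04). The activity and protein of Atf4 were not measured here.

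Of 20 genes on a list of Atf4 and genes it is known to activate, which holds none of the 9 enzymes, 14 fell and 1 rose at day 1. At day 2, 15 of them rose and 2 fell. Of all genes tested, 30.8% fell and 30.1% rose at day 1, and 32.5% rose and 29.6% fell at day 2. In Nprl2 KO 16 of the 20 rose, in Tsc2 KO 13 rose, and none fell in either, where 2.78% and 14.9% of all genes rose. Against Nprl2 KO, 10 were lower and 1 higher in Tsc2 KO, where 16.6% of all genes were lower and 17.5% higher. Fewer of the 20 were called without Tsc2 KO library 1. The mean level of the stress gene Nupr1 was 6.92 TPM in wild-type cells, 45.7 with Nprl2 KO and 41.9 with Tsc2 KO. Chac1, a glutathione-degrading enzyme, averaged 2.90, 14.7 and 8.17 TPM, and Atf3 averaged 0.869, 3.33 and 2.79 TPM. Vldlr, a lipoprotein receptor, averaged 0.175, 0.864 and 0.514 TPM in the same order. Its level in the wild-type libraries was very low (0.141 and 0.208 TPM). At day 1 Nupr1 fell from 111 to 3.95 TPM, Chac1 from 14.5 to 2.50, and the arginine and lysine carrier Slc7a1 from 48.6 to 11.5. At day 2 Chac1 and Nupr1 rose again, to 33.0 and 39.5 TPM. Each change named in this account of the list passed the edgeR threshold. The list was drawn up with earlier results of these data known, and its counts describe these libraries only.

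**Figure D4:**
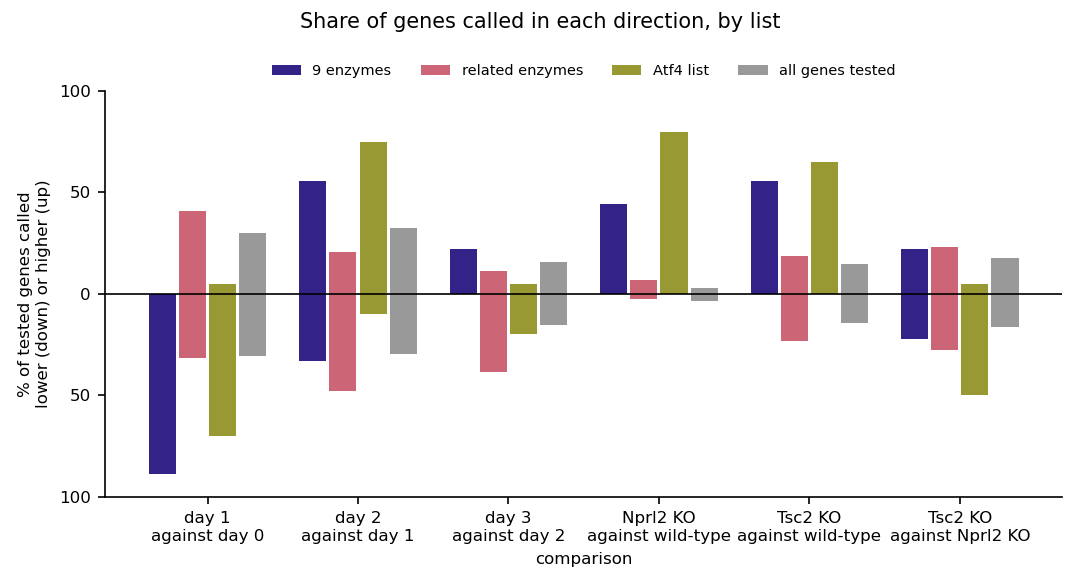
Share of tested genes (vertical axis, percent) called higher (upward bars) or lower (downward bars) in each comparison, for the 9 enzymes, the related enzymes, the Atf4 list and all genes tested. At day 1, 8 of the 9 enzymes and 14 of the 20 genes of the Atf4 list were lower. The 44 related enzymes split, with 18 higher and 14 lower, and of all genes tested 30.1% were higher and 30.8% lower.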

How the data were processed

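The authors deposited kallisto estimated counts and TPM per RefSeq transcript for 18 libraries, and TPM per gene. Estimated counts are not scaled between libraries, and TPM are scaled only to the same total in every library. The submitters' processing notes name kallisto 0.42.1, mm10 and DESeq2. The authors' tables of fold changes and p values were not used. Library preparation of the time course is not given in the sources used here.

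Transcripts were assigned to genes through RefSeq GRCm38.p6 (33713 of 34079) and GENCODE M21 (192), and 174 were left out. Counts were summed per gene, rounded and fitted with edgeR 4.0.16 (TMM, its low-count filter, robust quasi-likelihood), separately for GFP+ and time-course libraries, with adjustment over all genes tested. SE is the log2 fold change divided by the square root of F. The normal intervals take no account of the small number of libraries, and are narrower than the edgeR test implies. Levels of the 9 genes are deposited TPM per gene, and all 162 values matched the sums of their transcripts within 1%. Levels of all other genes are sums of the deposited TPM of their transcripts. Reads shared with near-identical genes were divided by kallisto. The code was tested on simulated data.

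Members and lists were chosen with earlier results of these data known. Named genes were the 9 members, their paralogs, up to 4 called genes with the largest change per list and comparison, Atf4, the targeted genes, and the 2 genes with the highest r per member; some genes that this rule names are not reported here. Alternatives were DESeq2 1.42.0, upper-quartile scaling, no filter, at least 10 counts in every library, limma 3.58.1 on log2(TPM + 1), a replicate block, fits of only the 2 groups compared, each library left out, and the chromosome median. Groups of 2 or 3 libraries limit precision.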

Additional observations from a re-analysis of the deposited data

How the results depend on the processing

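Of 765 refitted log2 fold changes of the 9 genes, 695 kept their direction and their side of the threshold, 32 lost and 15 gained a call, and 23 changed sign, all of genes not called in that comparison. When each library was left out in turn, values that crossed 0 lay in Nprl2 KO between -0.3944 and 0.1771 for Cth, -0.0687 and 0.1865 for Cbs and -0.0836 and 0.09 for Got1. They lay in Tsc2 KO between -0.1332 and 0.1378 for Glul, and between the KOs from -0.0466 to 0.1019 for Pck2, -0.1494 to 0.0947 for Cbs and -0.4214 to 0.1665 for Pycr1. In the time course they lay between -0.1576 and 0.1486 for Glul (day 1 against 0), -0.143 and 0.0247 for Asns and -0.2264 and 0.0469 for Cbs (day 3 against 2), and -0.0798 and 0.0906 for Gpt2 (day 3 against 0). With limma the sign turned for Got1 in Nprl2 KO (-0.0216) and between days 2 and 1 (0.0766), and for Cbs between the KOs (0.0395). Glul in Tsc2 KO gave -0.0014 with DESeq2, -0.0015 without the filter and -0.0049 with only the 2 groups fitted, and Got1 gave 0.0435 between days 2 and 1 with upper-quartile scaling. The causes were not tested.

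All genes called in Nprl2 KO against wild-type numbered 883, 1667 without the filter, and between 339 and 548 with 1 library left out. Leaving out 1 library gave between 2225 and 3057 for Tsc2 KO against wild-type, between 2974 and 3616 between the KOs, and between 2969 and 5055 for day 3 against day 2. Of the 9 genes, 2 were called in that last comparison, 1 with upper-quartile scaling and between 0 and 2 with 1 library left out.

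Groups share replicate numbers. Deviations of same-numbered libraries correlated at between 0.175 and 0.351 in GFP+ cells, with only 2 numbers, and at between -0.205 and 0.25 in the time course. All same-numbered pairs of GFP+ libraries were thus positive. With 2 libraries per group, the same-numbered pairs of any 2 groups share their value. Differently numbered pairs hold its exact negative (-0.351 to -0.175), so the pairs are not independent of each other. No label ties a number to a clone, culture or batch, so the main fits did not pair libraries. Whether the GFP+ libraries are paired cannot be told from the labels. With a replicate block, 2072 of the 13725 genes tested were called in Nprl2 KO, 5255 in Tsc2 KO and 5846 between the KOs. Of the 9 genes, 6, 7 and 6 were called in these comparisons. With the block, 14 of the 43 related enzymes tested were called in Nprl2 KO, 8 higher and 6 lower. Of all genes, 948 were called higher and 1124 lower there. The block added Asns (0.3155, adjusted p = 0.000754) and Glul (-0.2086) in Nprl2 KO, Cth (0.4229) and Gpt2 (0.2941) in Tsc2 KO, and Cth (0.5022) and Glul (0.2137) between the KOs. In the time course it left the number of the 9 genes called in each comparison as it was.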
